A study of Mus musculus with 6 samples.

Results

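The semaphorins, the plexins and the neuropilins were compared between the midbrain floor plate and the ventral lateral tissue beside it in mouse embryos. All probe sets annotated to exactly 1 gene of the semaphorin classes 3 to 7, of the plexin A, B, C and D families or of the neuropilins were taken by their gene symbol. This gave 78 of 45037 probe sets, standing for 31 of 18193 genes: 20 semaphorins, 9 plexins and 2 neuropilins. Every sample was dissected from C57BL/6 embryos of mixed sex at embryonic day 10.5 and pooled from 6 embryos, with 3 pools of floor plate and 3 pools of non-overlapping ventral lateral region. No transgene, drug or other treatment is named in the labels. Total RNA (5 ng per pool) was amplified, labelled with biotin and hybridised to Affymetrix arrays, 1 array per pool. Values were taken as log2 ratios, although their log base is not stated, and have the median of the 6 arrays at 0 for every probe set. They show differences between samples but no absolute level, so the levels of different genes cannot be compared. When the groups do not overlap, this centring puts the lowest value of the higher group and the highest value of the lower group at equal distance from 0.

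Semaphorins are guidance cues for axons and migrating cells that carry a shared sema domain. Class 3 semaphorins are secreted, classes 4, 5 and 6 are transmembrane proteins, and class 7 is held in the membrane by a lipid anchor. Plexins are the receptors that signal inside the cell, whereas neuropilins have a short cytoplasmic tail and bind most class 3 ligands as partners of A-type plexins. Near the ventral midline of the neural tube, class 3 semaphorins and neuropilins are known for steering commissural axons as they leave the floor plate.

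Most region markers differed in the direction of the labels. Of floor plate markers 14 of 17 probe sets were higher in floor plate (2.7% of all probe sets). Of ventral lateral markers 13 of 17 were lower in floor plate (2.01% of all probe sets). The midline factor gene Foxa2 was 0.58, 0.72 and 0.68 in the floor plate samples and -0.90, -0.58 and -1.82 in the ventral lateral samples (log2 difference 1.76, adjusted p = 0.0132). Nkx2-2 (-2.11) and Gata2 (-4.41 and -4.27 on its probe sets), transcription factor genes of ventrolateral progenitors and GABAergic precursors, were lower in floor plate. Of the ventral lateral list Nkx6-1, a progenitor factor gene, lay the other way, at 0.13, 0.11 and 0.24 in floor plate and -0.68, -0.11 and -0.85 in ventral lateral samples, and did not pass (0.71, adjusted p = 0.0856). Shh, the signal secreted by the floor plate, had log2 differences of 1.76 and 0.16 and passed on neither probe set (adjusted p = 0.0734 and 0.56). Ventral lateral replicate 2 lay nearer to the floor plate group than the other two pools: the mean of the floor plate markers was -0.80 there, -1.45 in replicate 1 and -1.80 in replicate 3. Since tissue was profiled in bulk, fewer cells of a type and less RNA per cell cannot be told apart in any result given here. The labels do not say that the pools came from separate litters or dissections, so p-values measure the spread between these samples, which may in part be technical.

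The neuropilins and several secreted class 3 semaphorins were higher in the floor plate, several transmembrane semaphorins were lower, and of the plexins only Plxna3 passed the test, as lower. In limma, with Benjamini-Hochberg adjustment over all 45037 probe sets and a threshold of 0.05, 14 of the 78 members passed as higher and 5 as lower. That is 24.4% of the members, where 4.71% of all probe sets passed, 2.7% as higher and 2.01% as lower. The 14 belonged to the 5 genes Nrp1, Nrp2, Sema3b, Sema3d and Sema3e, and the 5 to the 4 genes Sema4a, Sema4f, Sema6b and Plxna3. Over all 18193 genes, 7.83% had at least 1 probe set past the threshold, 4.58% a higher one and 3.25% a lower one. The members had 2.52 probe sets per gene on average, against 1.92 over all genes. The median log2 difference over the members was 0.01, beside -0.0040 over all probe sets, with members on both sides of 0. Dropping ventral lateral replicate 1 left 8 higher and 2 lower probe sets, and dropping floor plate replicate 1, 2 or 3 left 10 higher and 3 lower ones each time.

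**Figure D1:**
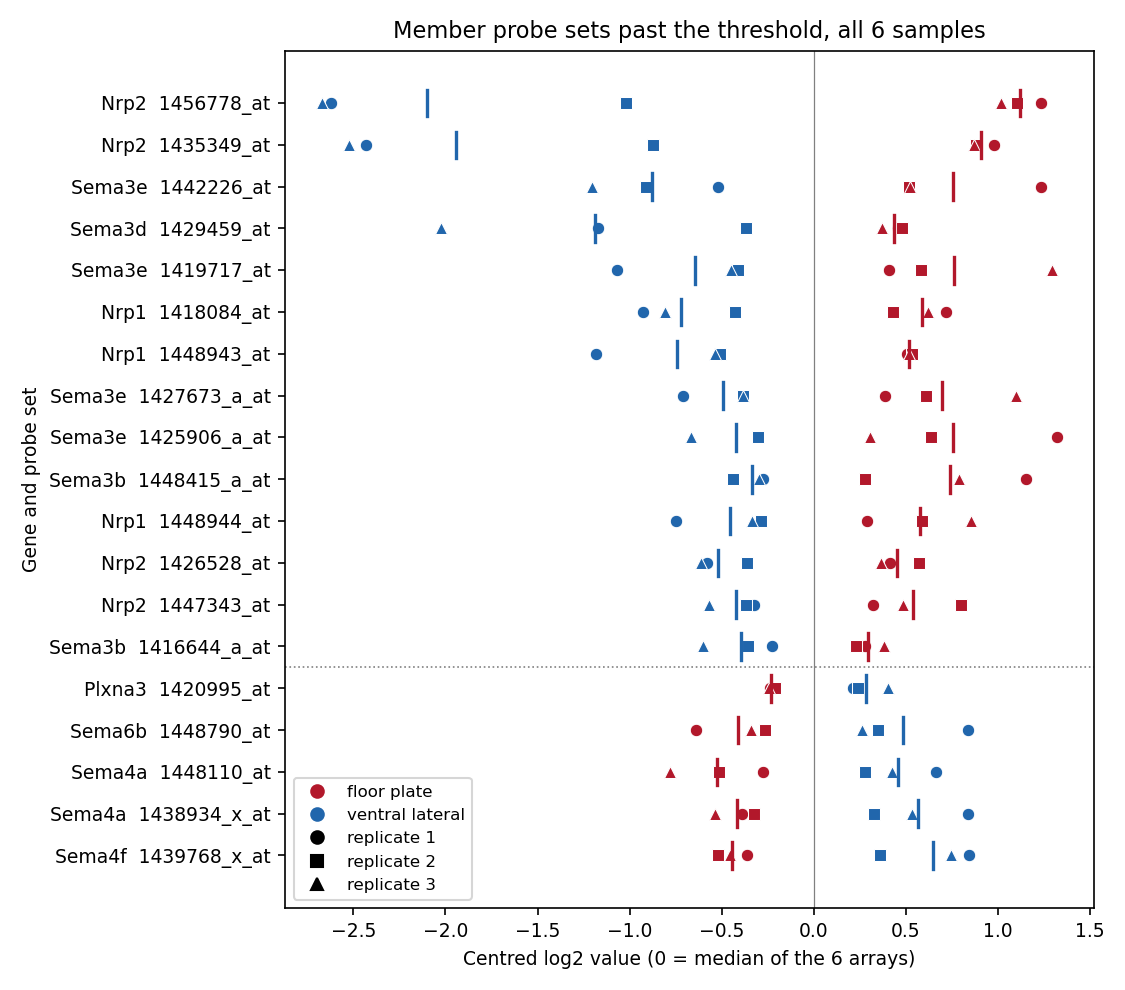
Centred log2 values of the 19 member probe sets past the threshold (14 higher above the dotted line, 5 lower under it), with 1 symbol per sample, colour for the region, symbol shape for the replicate number and a vertical bar for each group mean (n = 3). The groups do not overlap in any of the 19, which were chosen by this difference (22.4% of all probe sets have such groups). In both Nrp2 probe sets at the top ventral lateral replicate 2 sits apart from replicates 1 and 3.

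To show the sequence next to the starts of genes that moved, 4 members past the threshold are printed: those whose start has 1 RefSeq window (assembly GRCm38.p6) with over 200 bases outside every annotated gene. Each run ends just before the annotated gene start, is written 5′ to 3′ in the direction of the gene, and has GC boxes (GGGCGG or its reverse complement CCGCCC, overlapping matches included) in capitals. Nrp2, Sema3e and Sema3d were higher and Sema4f was lower in floor plate.
Nrp2 (chr1:62703067-62703316, plus strand): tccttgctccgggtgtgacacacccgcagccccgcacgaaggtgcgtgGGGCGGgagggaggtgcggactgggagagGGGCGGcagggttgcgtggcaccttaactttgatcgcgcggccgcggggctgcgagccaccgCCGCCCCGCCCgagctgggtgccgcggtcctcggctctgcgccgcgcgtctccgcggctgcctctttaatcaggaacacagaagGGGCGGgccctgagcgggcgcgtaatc
Sema3e (chr5:14025026-14025275, plus strand): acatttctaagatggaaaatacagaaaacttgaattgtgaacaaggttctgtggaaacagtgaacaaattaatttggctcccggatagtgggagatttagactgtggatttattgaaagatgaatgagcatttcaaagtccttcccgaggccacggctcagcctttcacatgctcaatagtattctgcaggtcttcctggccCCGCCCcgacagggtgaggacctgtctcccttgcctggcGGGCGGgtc
Sema3d (chr5:12382916-12383160, plus strand): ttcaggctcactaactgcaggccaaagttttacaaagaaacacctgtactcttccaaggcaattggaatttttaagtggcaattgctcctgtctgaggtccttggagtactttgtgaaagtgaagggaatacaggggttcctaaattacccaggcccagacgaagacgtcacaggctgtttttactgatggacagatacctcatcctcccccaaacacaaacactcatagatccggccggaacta
Sema4f (chr6:82939770-82940019, minus strand): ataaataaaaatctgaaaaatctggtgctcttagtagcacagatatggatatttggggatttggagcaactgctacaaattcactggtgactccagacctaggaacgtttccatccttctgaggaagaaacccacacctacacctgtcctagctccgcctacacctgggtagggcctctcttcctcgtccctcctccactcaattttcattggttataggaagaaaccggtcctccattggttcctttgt

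The run of Nrp2 held 5 GC boxes and was 72.4% G and C, that of Sema3e held 2 at 48%, and those of Sema3d (46.1%) and Sema4f (46%) held none. The median G and C share over all windows was 52.4%. In the 250 bases before the start, a GC box on either strand was found in 73% of the 37 windows of members and in 32.7% of all 32851 windows. It was present in 3 of the 4 genes with higher probe sets that had a window (Nrp1, Nrp2 and Sema3e) and in 3 of the 4 with lower ones (Plxna3, Sema4a and Sema6b), so it was found on both sides. The Foxa-type letters TGTTTAC (3.17% of all windows), the Gli-type letters GACCACCCA (0.225%) and the homeodomain-type letters TAATTA (4.84%), each searched on both strands, were in 0 of the 37 windows. A match or its absence describes these letters in this window and says nothing on binding. Windows were matched by symbol for 26 of the 31 genes.

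Neuropilins were the receptors that differed most. Of their 8 probe sets 7 were higher in floor plate (87.5%, beside 2.7% of all probe sets), with a median log2 difference of 1.15. Nrp2, the neuropilin that takes part in responses to Sema3B and Sema3F, passed on all 4 of its probe sets. On probe set 1456778_at it measured 1.23, 1.10 and 1.02 in floor plate and -2.62, -1.02 and -2.67 in ventral lateral samples. The group means were 1.12 ± 0.11 and -2.10 ± 0.94 (SD, n = 3 each), a 9.32-fold higher value in floor plate (log2 difference 3.22, SE 0.41, adjusted p = 0.00443). The floor plate pools were close together, and the ventral lateral pools spread widely because replicate 2 was less low than the other two. Probe set 1435349_at gave the same picture, at 0.98, 0.88 and 0.87 against -2.43, -0.87 and -2.52 (log2 difference 2.85, adjusted p = 0.00706). Without ventral lateral replicate 2 the log2 differences were 3.76 and 3.39.

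The other Nrp2 probe sets showed the same direction at a smaller size. Probe set 1426528_at was 0.41, 0.57 and 0.36 in floor plate and -0.58, -0.36 and -0.61 in ventral lateral samples (log2 difference 0.97, SE 0.11, adjusted p = 0.00311). Probe set 1447343_at was 0.32, 0.80 and 0.49 against -0.32, -0.37 and -0.57 (0.96, adjusted p = 0.00952). In these the ventral lateral replicates lay close together. The value of 1456778_at minus that of 1447343_at was 0.91, 0.31 and 0.53 in floor plate samples and -2.30, -0.65 and -2.10 in ventral lateral samples, so the Nrp2 differences on these probe sets were 2.26 apart on the log2 scale. The source of this gap was not tested. All 4 Nrp2 probe sets passed in every fit that left out 1 sample.

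Nrp1, the neuropilin bound by Sema3A and also a co-receptor for vascular endothelial growth factor, passed on 3 of its 4 probe sets. Probe set 1418084_at measured 0.72, 0.43 and 0.62 in floor plate and -0.93, -0.43 and -0.81 in ventral lateral samples, 2.48-fold higher in floor plate (log2 difference 1.31, SE 0.15, adjusted p = 0.00311). Probe set 1448943_at was 0.51, 0.53 and 0.52 against -1.18, -0.51 and -0.54 (1.26, adjusted p = 0.00781). The floor plate pools were nearly equal there, and ventral lateral replicate 1 was the lowest. Probe set 1448944_at was 0.29, 0.59 and 0.86 against -0.75, -0.29 and -0.34 (1.03, adjusted p = 0.0183), and was over the threshold when floor plate replicate 2 or 3 or ventral lateral replicate 1 was dropped (adjusted p up to 0.0566). On the fourth, 1457198_at, the groups overlapped, at 0.03, 0.02 and -0.02 against -0.30, -0.03 and 0.05 (log2 difference 0.10, 95% interval -0.16 to 0.37, adjusted p = 0.738).

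**Figure D2:**
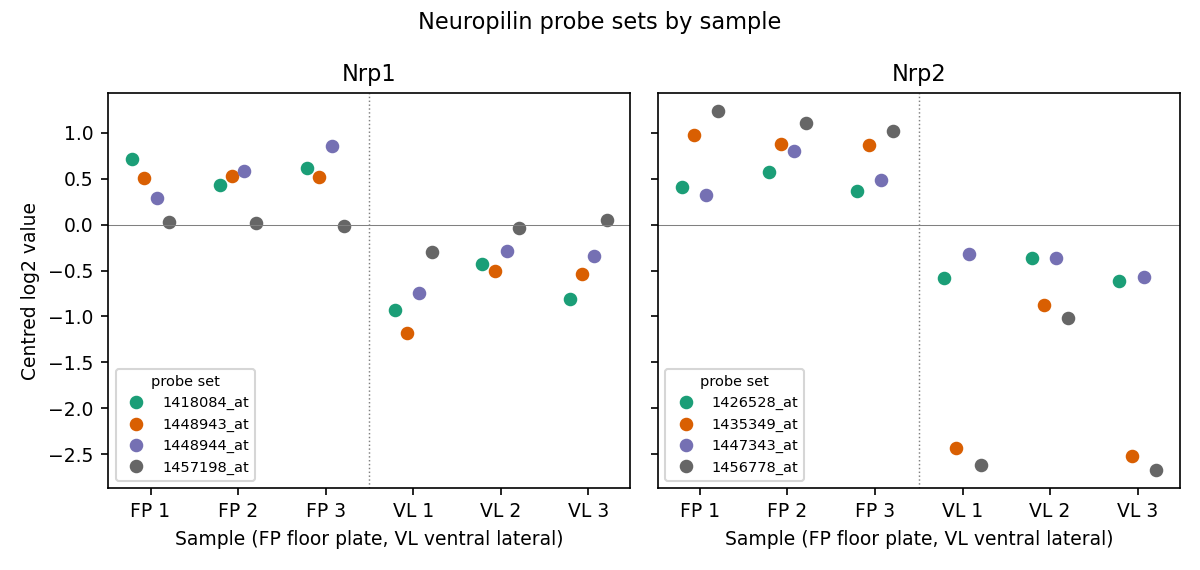
Centred log2 values of the 4 Nrp1 and the 4 Nrp2 probe sets in each of the 6 samples (FP floor plate, VL ventral lateral; colours mark probe sets). Nrp1 1457198_at stays near 0 in all samples, and Nrp2 1435349_at and 1456778_at are under -2 in ventral lateral replicates 1 and 3 but near -1 in replicate 2.

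Markers of other cell types were set beside these receptors. Over all 45037 probe sets 4.71% passed in limma, 2.7% as higher and 2.01% as lower, and 7428 had an unadjusted p under 0.05. Of 15 probe sets of 10 endothelial genes, the cells in which Nrp1 is also found, limma called 0 as higher and 1 as lower, the tight junction gene Cldn5 (-0.68); 2 had an unadjusted p under 0.05. Their mean lay between -0.16 and 0.06 in floor plate and between -0.02 and 0.12 in ventral lateral samples. Neuronal markers were, where they passed, lower in floor plate, 6 of 30 probe sets with 0 higher and a median log2 difference of -0.40. The count of lower calls was 2 when floor plate replicate 1 was dropped, and 3 when either floor plate replicate 3 or ventral lateral replicate 1 was. Their mean was -0.26, -0.05 and -0.24 in floor plate against 0.36, 0.20 and -0.05 in ventral lateral samples. The neuronal tubulin gene Tubb3 (log2 difference -0.44, adjusted p = 0.122) did not pass, nor did any of the 4 probe sets of Dcx, a microtubule protein gene of young neurons (-0.72 to -0.27). Of 25 probe sets of mesenchyme genes 1 was higher (Twist1, 2.11), and of 18 of blood and macrophage genes 0 passed, with 1 at an unadjusted p under 0.05. The endothelial (6.67%) and mesenchyme (4%) shares that passed were near that of all probe sets. Progenitor markers had 1 higher (Hes1, 1.10) and 5 lower of 22 probe sets, all 5 of Pax6, Sox1 and Sox3, and 3 lower ones when any 1 floor plate sample was dropped. Their mean lay between -0.31 and -0.17 in floor plate and between 0.19 and 0.36 in ventral lateral samples. Motile cilia genes had 3 higher and 0 lower of 10 probe sets, of Foxj1 (3.24), Tekt1 (1.04) and Rsph1 (0.76), and 1 higher when floor plate replicate 1 or ventral lateral replicate 1 or 2 was dropped. Their mean was 0.19, 0.13 and 0.32 in floor plate against -0.34, -0.27 and -0.29. Of 7 probe sets of motor neuron genes 0 passed in limma, with 4 at an unadjusted p under 0.05 and means of 0.13, 0.14 and 0.27 against -1.01, 0.01 and -0.29. Cilia and motor neuron means thus lay on the side of the neuropilins and the neuronal and progenitor means on the other, and their part in the neuropilin result was not tested. The lists were mixed within. Floor plate lay wholly above in 3 and wholly below in 1 of the 7 motor neuron probe sets, and Isl2 was at -0.78. The counts were 3 and 8 of 22 for progenitor, 3 and 15 of 30 for neuronal and 4 and 0 of 10 for cilia probe sets. Over all probe sets the shares were 11.5% and 11%. The mesenchyme mean ranged from -0.33 to 0.31 in floor plate and from -0.26 to 0.24 in ventral lateral samples.

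The class 3 semaphorins, the secreted ligands, were the ligand class with higher probe sets in the floor plate. Of 18 probe sets 7 passed as higher (38.9%, beside 2.7% of all probe sets) and 0 as lower. Their median log2 difference was 0.65. In 12 of the 18 the groups did not overlap (22.4% of all probe sets), in 10 with floor plate above (11.5%) and in 2 with floor plate below (11%). Sema3e, which is known to bind Plxnd1 without a neuropilin, passed on all 4 of its probe sets, with differences of 1.18 to 1.64. Probe set 1442226_at measured 1.23, 0.52 and 0.52 in floor plate and -0.52, -0.91 and -1.20 in ventral lateral samples, 3.11-fold higher (log2 difference 1.64, SE 0.24, adjusted p = 0.00865). Floor plate replicate 1 was the highest sample there and on 1425906_a_at, which was at 1.32, 0.64 and 0.30 against -0.30, -0.30 and -0.67 (1.18, adjusted p = 0.0408).

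Replicate 3 was the highest floor plate sample on the other Sema3e probe sets. Probe set 1419717_at was 0.41, 0.58 and 1.30 against -1.07, -0.41 and -0.45 (1.41, adjusted p = 0.0257). Probe set 1427673_a_at was 0.38, 0.61 and 1.10 against -0.71, -0.39 and -0.38 (1.19, adjusted p = 0.0129). The order of the floor plate samples thus depended on the probe set. The regions were apart on all 4, which had all passed (floor plate lay wholly above in 11.5% of all probe sets). Of these, 1442226_at passed in every fit that left out 1 sample; 1427673_a_at missed without ventral lateral replicate 1 (adjusted p = 0.0539), 1419717_at when floor plate replicate 2 or ventral lateral replicate 1 or 3 was dropped (up to 0.0808), and 1425906_a_at in all of these fits but the one without floor plate replicate 3 (up to 0.131).

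Sema3b, a secreted ligand that acts through both neuropilins, passed on 2 of its 3 probe sets. Probe set 1448415_a_at measured 1.15, 0.28 and 0.79 in floor plate and -0.28, -0.44 and -0.30 in ventral lateral samples (log2 difference 1.08, SE 0.21, adjusted p = 0.0277). Probe set 1416644_a_at was 0.28, 0.23 and 0.38 against -0.23, -0.36 and -0.60 (0.69, SE 0.12, adjusted p = 0.0186). The floor plate pools spread widely on the first and were close on the second. On 1431795_a_at the groups overlapped (0.60, adjusted p = 0.239). When floor plate replicate 1 or 3 or ventral lateral replicate 2 or 3 was dropped, neither of them passed (adjusted p up to 0.0902), and when ventral lateral replicate 1 was dropped only 1416644_a_at did.

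Sema3d, a secreted ligand, measured 0.46, 0.48 and 0.37 in floor plate and -1.17, -0.37 and -2.02 in ventral lateral samples on probe set 1429459_at (log2 difference 1.62, SE 0.36, adjusted p = 0.0475). The floor plate pools were nearly equal, and the ventral lateral pools ranged widely. The call was lost when floor plate replicate 1, 2 or 3 or ventral lateral replicate 1 was dropped (adjusted p up to 0.147), with array weights and with a robust fit. Its other probe set, 1453148_at, had a difference of 0.24 (adjusted p = 0.401) with floor plate above in all samples. Sema3c and Sema3g also had probe sets whose groups did not overlap but which did not pass: Sema3c 1429348_at at 0.11, 0.39 and 0.39 against -0.57, -0.11 and -1.16 (0.91, adjusted p = 0.0939), and Sema3g 1435361_at at 0.63, 0.50 and 0.01 against -0.36, -0.64 and -0.01 (0.71, adjusted p = 0.125). Sema3c passed without ventral lateral replicate 2 (1.16, adjusted p = 0.0259). The second Sema3c probe set was at 0.02 (95% interval -0.48 to 0.52).

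Sema3a and Sema3f, the ligands best known for acting through Nrp1 and Nrp2 respectively, did not share this direction. The 3 Sema3a probe sets had log2 differences of -0.42, -0.11 and 0.09, none past the threshold (adjusted p from 0.267 to 0.847), and their groups overlapped. The 3 Sema3f probe sets had differences of -0.33, -0.28 and -0.23 (adjusted p from 0.157 to 0.447). Probe set 1420508_at was -0.20, -0.09 and -0.15 in floor plate and 0.09, 0.12 and 0.19 in ventral lateral samples, and 1438947_x_at was also lower in each floor plate sample than in any ventral lateral one. The family is partly clustered in the genome: of the protein-coding genes in RefSeq, 0 lie between Sema3d and Sema3a, 3 between Sema3a and Sema3e and 3 between Sema3b and Sema3f. Genes past the threshold thus had neighbours of the same family that did not pass.

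The transmembrane and lipid-anchored semaphorins of classes 4 to 7 had 0 higher and 4 lower probe sets of 30, with a median log2 difference of -0.10. That is 13.3%, beside the 4.71% of all probe sets that passed. In 9 of the 30 the groups did not overlap, each time with floor plate below (11% of all probe sets). Sema4a, a ligand of B-type plexins also known from immune cells, was lower on both of its probe sets. Probe set 1438934_x_at measured -0.39, -0.33 and -0.54 in floor plate and 0.83, 0.33 and 0.53 in ventral lateral samples, 1.98-fold lower in floor plate (log2 difference -0.98, SE 0.14, adjusted p = 0.00855). Probe set 1448110_at was -0.28, -0.51 and -0.78 against 0.67, 0.28 and 0.43 (-0.98, SE 0.16, adjusted p = 0.0132). Ventral lateral replicate 1 was the highest sample on both, and without it 1448110_at was just over the threshold (adjusted p = 0.0504).

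Sema4f, a transmembrane semaphorin of the nervous system, had the largest fall among the members on 1439768_x_at, at -0.36, -0.52 and -0.45 in floor plate and 0.84, 0.36 and 0.74 in ventral lateral samples (log2 difference -1.09, SE 0.14, adjusted p = 0.00484). Probe sets with this suffix, which Sema4a 1438934_x_at also has, hold probes that may also match other transcripts. Its other probe set, 1419328_at, pointed the same way, at -0.12, -0.43 and -0.26 against 0.46, 0.12 and 0.63, and lay at the threshold (-0.68, adjusted p = 0.0504). It passed without ventral lateral replicate 2 (adjusted p = 0.0255). Sema4g (-0.30, adjusted p = 0.21) had separated groups, with floor plate below, and did not pass. Sema4b, Sema4c and Sema4d had differences of -0.08 to 0.29 on 6 probe sets, none past the threshold and none with separated groups. Class 4 as a whole had 3 lower probe sets of 11 (27.3%, beside 2.01% of all probe sets as lower) and a median of -0.08.

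Of class 6, transmembrane ligands of A-type plexins, Sema6b was lower, 1 of 11 probe sets (9.09%, beside 4.71% of all probe sets). It measured -0.64, -0.26 and -0.34 in floor plate and 0.84, 0.35 and 0.26 in ventral lateral samples, 1.86-fold lower in floor plate (log2 difference -0.90, SE 0.18, adjusted p = 0.0302). This call was lost when floor plate replicate 1, 2 or 3 or ventral lateral replicate 1 or 2 was dropped (adjusted p up to 0.105). The groups were separated, with floor plate below, for Sema6c 1451898_a_at (-0.50, adjusted p = 0.112) and for Sema6a 1425903_at (-0.23, adjusted p = 0.382). The other Sema6a, Sema6c and Sema6d probe sets overlapped between regions, and the class had a median of -0.23. Class 5, whose members carry thrombospondin repeats, had differences between -0.16 and 0.11 on 6 probe sets of Sema5a and Sema5b, with 95% intervals inside -0.63 to 0.38. Sema7a, the only class 7 gene, was at -0.41, -0.08 and -0.27 against 0.29, 0.09 and 0.08 on 1459903_at (-0.40, adjusted p = 0.129) and at 0.02 on its other probe set.

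**Figure D3:**
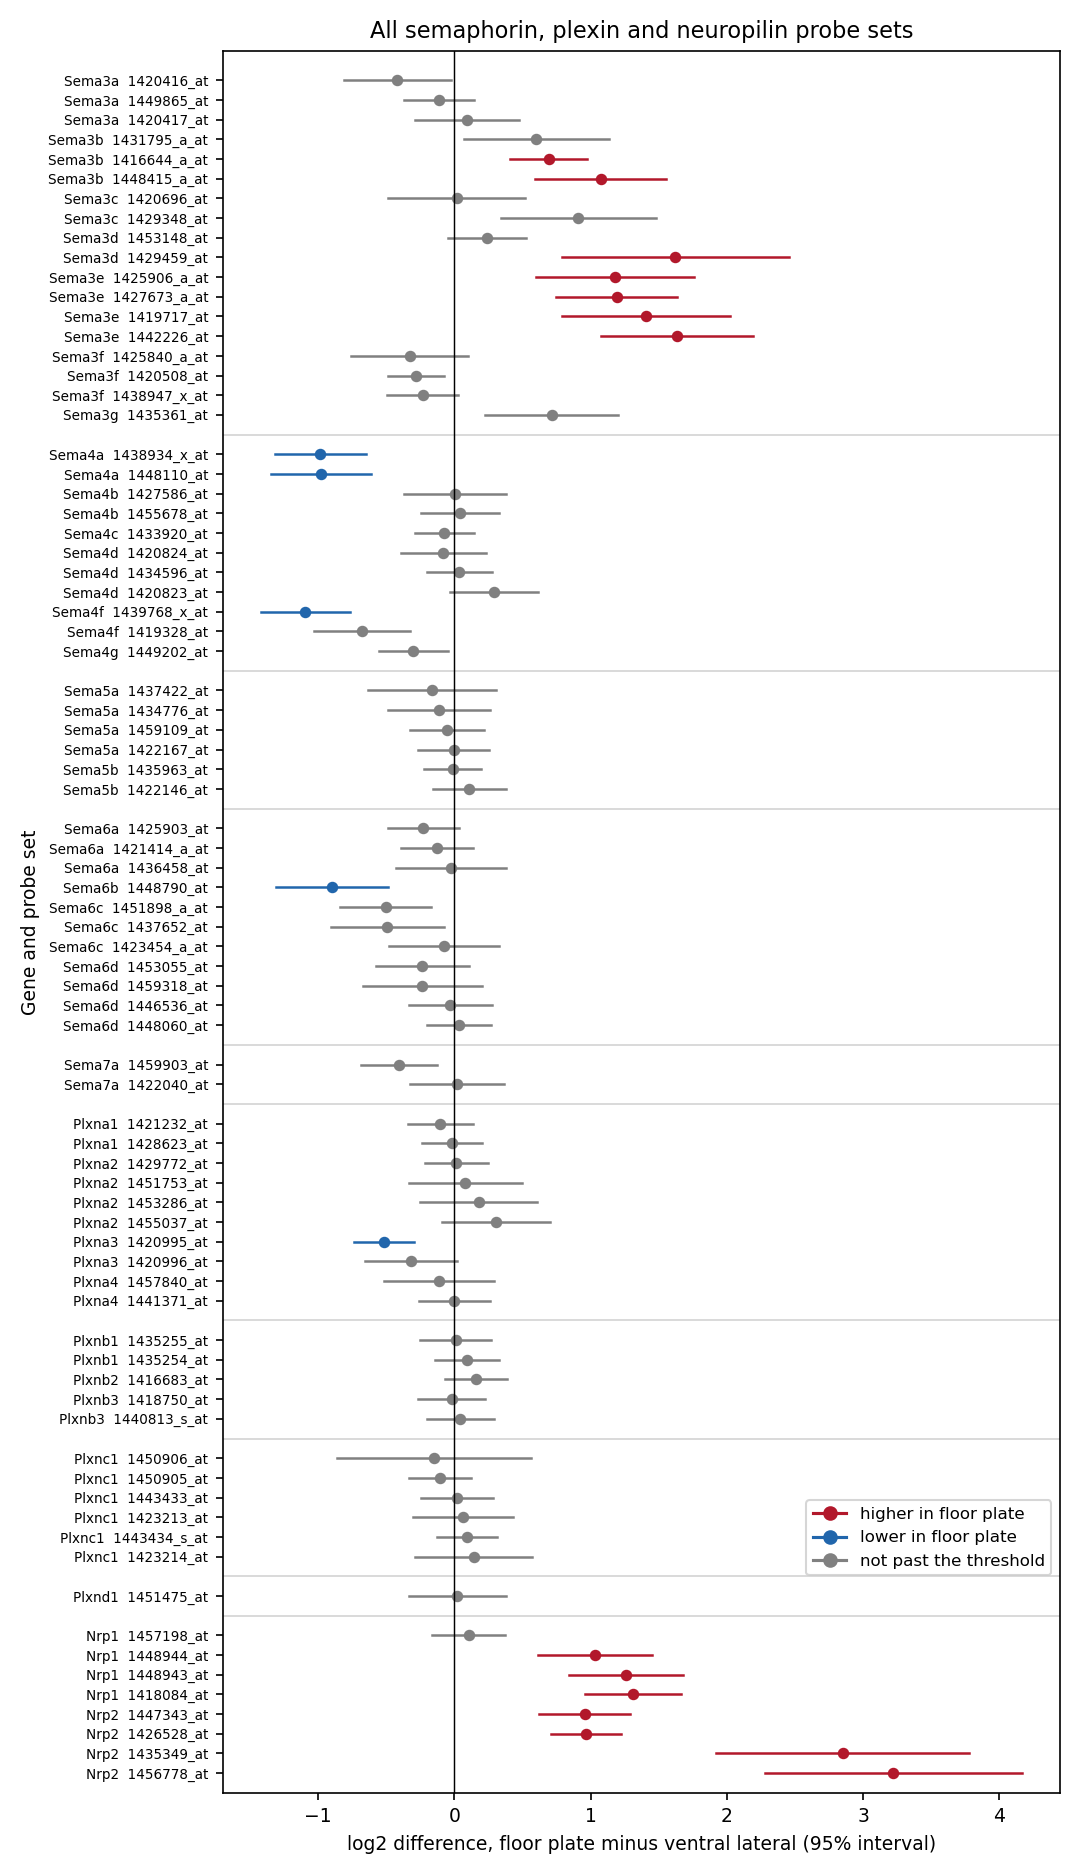
Log2 differences (floor plate minus ventral lateral) of all 78 member probe sets with 95% intervals from the limma fit, grouped by semaphorin class and receptor family and coloured by whether they passed the threshold. Points to the right of 0 past the threshold are class 3 semaphorins and neuropilins, those to the left are Sema4a, Sema4f, Sema6b and Plxna3, and the other plexins lie between -0.15 and 0.31.

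Plexins, the signalling receptors, had 1 lower and 0 higher of 22 probe sets, 4.55% beside the 4.71% of all probe sets. Plxna3, an A-type plexin that works with Nrp2 in the response to Sema3F, was lower on 1420995_at, at -0.24, -0.21 and -0.24 in floor plate and 0.21, 0.24 and 0.40 in ventral lateral samples (log2 difference -0.52, SE 0.10, adjusted p = 0.0237). The floor plate pools were almost equal and all under the ventral lateral pools. Probe set 1420996_at had the same order of the groups without passing (-0.32, adjusted p = 0.334). The call did not hold in any of the 6 fits that left out 1 sample (adjusted p of 0.0538 to 0.0824).

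The other 8 plexin genes had differences between -0.15 and 0.31 on 20 probe sets, and on each of them the groups overlapped. None passed in limma (smallest adjusted p = 0.441), and 0 had an unadjusted p under 0.05 (7428 of all 45037 probe sets did). Plxnd1, the receptor of Sema3E, was at 0.05, 0.00 and -0.34 in floor plate and -0.38, 0.00 and 0.02 in ventral lateral samples (log2 difference 0.02, 95% interval -0.33 to 0.38). Plxna1, Plxna2 and Plxna4, partners of the neuropilins, lay between -0.11 and 0.31, and the B-type plexins between -0.02 and 0.16. Plxnc1, the receptor of Sema7A, lay between -0.15 and 0.14 on 6 probe sets. The 95% intervals of these 20 probe sets reached from -0.86 to 0.70, so smaller differences than these could be missed.

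Co-receptors of semaphorins were taken as a list of 14 genes, mostly of adhesion molecules, kinases and integrins, with Cd72 and Sdc3 as well. The list had 6 higher and 2 lower of 35 probe sets and a median log2 difference of 0.07. The share that passed was 22.9%, beside 4.71% of all probe sets. Nrcam, a cell adhesion molecule that joins Nrp2 in the response to Sema3B, was higher on 2 probe sets, with 1434709_at at 0.72, 0.62 and 0.78 against -0.68, -0.62 and -1.18 (1.54, adjusted p = 0.00196) and 1430583_at at 0.65, 0.63 and 0.71 against -0.76, -0.63 and -1.08 (1.48, adjusted p = 0.000933). Chl1, a related molecule that binds Nrp1, was higher on 1435190_at, at 0.46, 0.72 and 0.51 against -1.08, -0.46 and -1.18 (1.47, adjusted p = 0.00544), and on 1417795_at (1.46). Each of these was named because it passed, and its regions were separated with floor plate above (11.5% of all probe sets). The integrin gene Itga3 was higher on 1455158_at, at 0.81, 0.58 and 0.72 against -0.91, -0.58 and -0.87 (1.49, adjusted p = 0.0007), and on 1421997_s_at (1.06). Cntn2, an adhesion molecule of commissural and other young axons, was lower on 1456962_at, at -0.53, -0.49 and -0.88 against 0.96, 0.49 and 0.75 (-1.37, adjusted p = 0.00331), and on 1435165_at (-0.85), which no longer passed when floor plate replicate 1 (adjusted p = 0.061) or ventral lateral replicate 1 (0.0699) was dropped. Other probe sets of these genes did not pass. They were Nrcam 1443281_at (0.82) and 1458833_at (0.41), and Chl1 1443713_at (0.16) and 1447036_at (0.13). Itga3 1460305_at (-0.04) and Cntn2 1435166_at (-0.76) and 1450523_at (-0.03) did not pass either.

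Genes that act inside the cell downstream of plexins had 1 higher and 5 lower of 70 probe sets from 30 genes, with a median log2 difference of -0.12. That is 8.57%, beside the 4.71% of all probe sets that passed. Rnd3, a small GTPase gene, was lower at -0.90, -0.27 and -0.43 against 0.62, 0.27 and 0.28 (-0.92, adjusted p = 0.0296). Dpysl3 and Crmp1, collapsin response mediators of young neurons, were lower as well, Dpysl3 1415877_at at -0.55, -0.24 and -0.40 against 0.70, 0.44 and 0.24 (-0.86, adjusted p = 0.0154) and Crmp1 1448289_at at -0.49, -0.17 and -0.40 against 0.56, 0.30 and 0.17 (-0.70, adjusted p = 0.0302). Dpysl3 also passed on 1438789_s_at (-0.74) but not on 1454613_at (-0.22, adjusted p = 0.284). The other Rnd3 probe set, 1416700_at, did not pass (-0.58, adjusted p = 0.151). The other Dpysl genes of the list did not pass. They were Dpysl2 (-0.10 and 0.13), Dpysl4 (-0.58, -0.51 and -0.33) and Dpysl5 (-0.14 and -0.12). The lower Rnd3, Dpysl3 and Crmp1 probe sets past the threshold ran with the neuronal markers given above, and the part of those markers in the result was not tested. Rras, a plexin target, was at -0.16, -0.25 and -0.19 against 0.16, 0.27 and 0.20 (-0.41, adjusted p = 0.048), and Rnd1, a GTPase that binds plexins, was higher at 0.15, 0.20 and 0.47 against -0.28, -0.37 and -0.15 (0.55, adjusted p = 0.0476). None of the 6 probe sets past the threshold passed when floor plate replicate 1 or 3 was dropped. Dropping ventral lateral replicate 1 or 2 left 1 lower probe set (Dpysl3 1415877_at), dropping ventral lateral replicate 3 left 3, and Rnd1 and Rras missed the threshold in each of the 6 fits.

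The members past the threshold were chosen by the region difference, so only their spread within a region is described here. The mean of the 14 higher probe sets was 0.69, 0.59 and 0.68 in floor plate and -0.93, -0.50 and -0.98 in ventral lateral samples. Ventral lateral replicate 2 was the one nearest to the floor plate in 8 of these 14, and in 56.4% of all 1218 probe sets higher in floor plate. The mean of the 5 lower probe sets was -0.38, -0.37 and -0.47 against 0.68, 0.31 and 0.47, with replicate 2 nearest in 3 of 5 and in 44.5% of all 903 lower ones. Among the ventral lateral samples the floor plate markers were likewise least low in replicate 2, while among the floor plate samples the mean of the higher members was lowest in replicate 2 and that of the markers highest, at 0.95. The part of differing tissue content in the size of the member differences was not tested. Without ventral lateral replicate 2 there were 12 higher and 4 lower member probe sets.

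**Figure D4:**
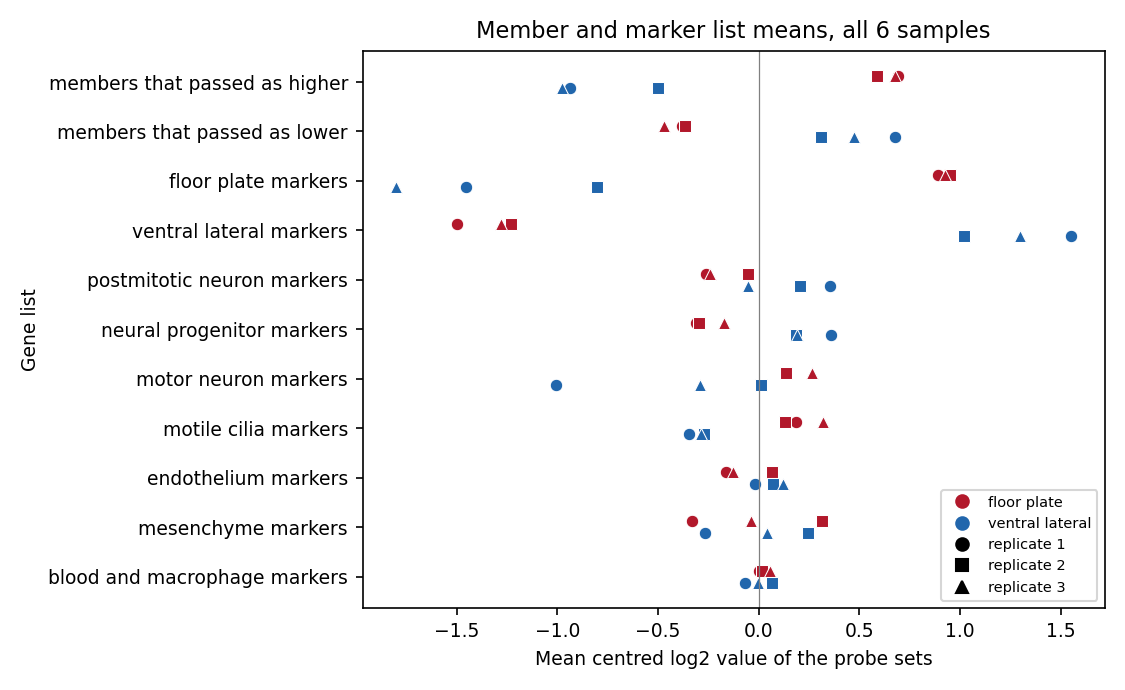
Mean centred log2 value per sample of the member probe sets past the threshold (14 higher and 5 lower, chosen by this difference) and of the marker lists for regions and cell types, with colour for the region and symbol shape for the replicate number. Region, progenitor, motor neuron and motile cilia markers are separated by region, neuronal markers nearly meet at -0.05 in floor plate replicate 2 and ventral lateral replicate 3, and endothelial, mesenchyme and blood markers overlap between regions.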

How the data were processed

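Affymetrix arrays of 3 floor plate and 3 ventral lateral pools were compared. Per the submitters' processing notes the authors used RMA, with no version stated. Their deposited values, taken as log2, are centred: 100% of probe sets had a median within 1e-05 of 0 over the 6 arrays. Log base, centring step and direction are not stated; higher values were taken as more RNA. No filter on low values was possible, and signal over background is unknown. Of 45101 probe sets 64 controls were left out. Probe sets were named from GEO's platform annotation (34945 with 1 symbol, 932 with several, 9160 with none), and all 31 member genes matched the RefSeq table of GRCm38.p6.

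Differences were fitted per probe set with lmFit and eBayes of limma 3.58.1 (R 4.3.3), adjusted over all 45037 probe sets, threshold 0.05. An exact permutation test of 3 against 3 cannot go under p = 0.1 and was not used. On simulated data with these samples' spread, 8% of probe sets changed by a log2 of 0.5 were recovered, 64% at 1, 92% at 2 and 98% at 3. There 50 probe sets were changed at each of these sizes, far fewer than the 2121 that passed in the data. The adjustment depends on how many probe sets change, so these shares may be too low for the data. Members, lists and tests were chosen with earlier results of these data known. Values by sample are given for members and pathway genes past the threshold. Other members are named where their groups do not overlap. Python 3.11.15, pandas 2.3.3 and matplotlib 3.10.9 were used for motifs and plots.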

Additional observations from a re-analysis of the deposited data

How the results depend on the processing

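Of 370 alternative values for the 30 member probe sets that passed or had separated groups, 324 kept direction and side of the threshold, 41 lost the call, 5 gained it and 0 reversed. Quantile normalization gave 14 higher and 5 lower member probe sets, and array centring 14 and 6. With probe sets ending in _x_at or _s_at left out there were 14 higher and 4 lower, and Sema4f 1419328_at then passed. A gene's most variable probe set and the mean of its probe sets gave 5 higher and 4 lower genes each; counts of probe sets cannot be formed there. With the replicate number as a block there were 14 higher and 4 lower member probe sets but 2 lower genes, since Plxna3 and Sema6b missed the threshold. Whether the numbers pair the samples cannot be decided from these few arrays. The deviations of same-numbered pools correlated at 0.01, 0.12 and 0.11, and those of the other pairs at -0.15 to 0.03. Floor plate replicates 2 and 3 correlated best with the ventral lateral pool of their own number, and replicate 1 with ventral lateral replicate 3. Leaving out 1 sample gave 8 to 12 higher and 2 to 4 lower member probe sets, 3 to 5 higher and 2 to 3 lower genes, and 753 to 991 higher and 510 to 743 lower probe sets over the whole array; all fits have fewer samples. In all 6 of these fits 9 member probe sets passed, of Nrp1, Nrp2, Sema3e, Sema4a and Sema4f. For Sema4a and Sema4f these were only 1438934_x_at and 1439768_x_at, whose probes may also match other transcripts. Alternatives for the pathway lists were added after seeing the data: without 1 sample the co-receptors had 6 to 7 higher and 1 to 3 lower probe sets, and the downstream genes 0 higher and 0 to 4 lower. With the replicate block the downstream genes had 0 higher and 3 lower, as Rnd3 (adjusted p = 0.071), Crmp1 1448289_at (0.0609), Rras (0.117) and Rnd1 (0.0502) missed the threshold and 1 other lower probe set passed. Depth is not defined for these arrays, and their number limits the precision.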
